A study of Homo sapiens with 8 samples.

Results

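The 33 genes described here code for ribosome biogenesis factors and for the proteins of small nucleolar ribonucleoprotein particles (snoRNPs). They were taken by name, but the list was chosen with earlier results of these data known. All 33 stand in both deposited tables, among 12700 genes listed for 143B and 12810 for HOS. By role they are 3 box C/D snoRNP proteins, 4 box H/ACA snoRNP proteins, 5 genes of RNA polymerase I and its factors, 8 small subunit factors, 7 large subunit factors and 6 nucleolar proteins that act at several steps. All 33 are annotated as protein coding and all reached 1 FPKM in 2 or more of a line's 4 libraries, the level needed for testing, in each line.

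143B and HOS are established human osteosarcoma cell lines, 143B having been derived from HOS by oncogene transformation. Groups were 143B sgNAT10, 143B NC, HOS sgNAT10 and HOS NC, with 2 polyadenylated RNA libraries each, 8 in all. sgNAT10 is the label of cells given a guide RNA against NAT10, called knockout cells by the submitters, and NC is the label of the control cells. The labels name no guide sequence, clone or culture, so the p-values measure only the spread between these libraries, which may be technical. The smallest p that exact permutation of 2 against 2 libraries allows is 0.33, so the calls rest on a spread that limma pooled across genes.

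Ribosomes are built in the nucleolus. RNA polymerase I transcribes a long precursor RNA, which is folded, modified and cut into the ribosomal RNAs while ribosomal proteins are added. Box C/D snoRNPs guide methylation of the ribose and box H/ACA snoRNPs guide pseudouridylation, and the box C/D snoRNP U3 is needed for the cuts that release the small subunit RNA. NAT10 belongs to this pathway, as it acetylates cytidines of the small subunit RNA and binds the early small subunit precursor. Growing tumour cells depend on a high output of ribosomes, and the transcription factor MYC is known to raise many of these genes through the E-box sequence CACGTG.

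The E-box was looked for in the RefSeq promoter windows of the members (GRCh38.p14, 250 bases before to 50 bases after each gene's start), which were available for 29 of the 33. CACGTG reads the same on both strands and overlaps no other motif searched. It stood in the windows of 14 of these 29 genes (48.3%), against 12.8% of 9933 genes tested in a line and 8.77% of all 27305 genes with a window. None of the 5 RNA polymerase I genes held it, and 5 of 7 small subunit genes did. The 5 sites below belong to genes that were higher in 143B sgNAT10, and the last to NOP10, which was lower in the libraries labelled sgNAT10 of both lines. Each is 30 bases, written 5′ to 3′ on the gene's strand with the E-box in capitals.
DDX21, chr10:68956604-68956633, plus strand: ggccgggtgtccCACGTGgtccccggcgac
LYAR, chr4:4290068-4290097, minus strand: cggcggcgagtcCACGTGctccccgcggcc
GAR1, chr4:109815781-109815810, plus strand: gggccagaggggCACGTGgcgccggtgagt
RRP9, chr3:51941892-51941921, minus strand: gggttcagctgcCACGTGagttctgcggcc
MRTO4, chr1:19251807-19251836, plus strand: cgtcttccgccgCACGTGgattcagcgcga
NOP10, chr15:34343289-34343318, minus strand: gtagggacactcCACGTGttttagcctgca
The E-box lay close to the start in the first 5 genes. It began at base -31 in DDX21, -64 in LYAR, 32 in GAR1, -5 in RRP9 and 15 in MRTO4. NOP10 held 2 copies, of which the first began at -170, and the place of the other was not recorded. The other 8 genes with the E-box were not called in 143B, and there it began between base -10 (UTP20) and 36 (NOP2). A place close to the start was thus not particular to the genes that rose. It stood in 5 of 8 windows of genes higher in 143B sgNAT10, in 1 of 3 of those lower and in 8 of 18 of the rest. For HOS calls it stood in 3 of 6 windows of genes higher, in 4 of 12 of those lower and in 7 of 11 of the rest. These shares were not tested against each other. A match of letters is a description and does not show binding.

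Total listed FPKM was 798137 and 775277 in 143B sgNAT10, against 653693 and 594407 in 143B NC. In HOS it was 484793 and 494186 in the libraries labelled sgNAT10, against 559748 and 574807 in HOS NC. The total was thus higher under the sgNAT10 label in 143B and lower under it in HOS, without overlap. Read counts are not part of the tables, so depth is unknown. The 33 genes took 0.591% and 0.677% of the listed FPKM in 143B sgNAT10, against 0.530% and 0.633% in 143B NC, and 0.817% and 0.832% in HOS sgNAT10, against 0.982% and 0.928% in HOS NC. The share thus overlapped between the groups in 143B and was lower in both HOS libraries labelled sgNAT10. All 6 mesenchymal and osteoblast markers were listed in both lines. Their summed FPKM was 501.7 to 791.5 in 143B sgNAT10 and 1395 to 1815 in 143B NC, and 1620 to 1679 in HOS sgNAT10 and 1317 to 1498 in HOS NC. Of 3 blood markers LYZ alone was listed, at 6.89 to 7.33 FPKM in 143B sgNAT10 and 0.69 to 1.30 in 143B NC. Of 3 epithelial markers EPCAM and KRT19 were listed in both lines, summing to at most 3.77 FPKM in any 143B library and 22.04 in any HOS library. Of 3 endothelial markers none was listed in 143B and 2 in HOS, at most 2.02 FPKM in sum. The part of these shifts in the results was not tested. In RNA from whole cultures, fewer cells of a type and less RNA per cell cannot be told apart.

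The RNA of the targeted gene was set beside the labels, though its level does not by itself show whether the gene was edited. NAT10 had 9.05 and 7.19 FPKM in the 143B libraries labelled sgNAT10, against 16.06 and 19.95 FPKM in 143B NC (log2 -1.06, SE 0.31, limma adjusted p = 0.026). HOS gave 21.13 and 19.14 FPKM in the libraries labelled sgNAT10, against 14.86 and 16.22 FPKM in HOS NC (log2 0.35, SE 0.10, adjusted p = 0.0054). The RNA of the targeted gene was thus lower under the sgNAT10 label in 143B and higher under it in HOS, so HOS directions compare libraries by their labels. In 143B NAT10 missed the threshold when NC replicate 2 (adjusted p = 0.064), sgNAT10 replicate 1 (0.11) or sgNAT10 replicate 2 (0.22) was left out, and with median-ratio scaling (0.060). In HOS it missed it without sgNAT10 replicate 1 (0.18), with median-ratio scaling (0.26), quantile normalization (0.090) or a spread shared by all 8 libraries (0.23), and its value was -0.13 after correction for transcript length and GC content.

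In 143B, 9 of the 33 genes rose in the libraries labelled sgNAT10 and 3 fell, with adjusted p under 0.05. Over all genes tested, 12.9% were called higher and 25.4% lower in the same comparison. The median log2 change of the 33 genes was 0.22, beside -0.25 over all genes. It was -0.01 without NC replicate 1 and -0.09 with every library brought to the same sum, so its sign rests on these choices. In HOS, 8 of the 33 rose and 13 fell, where 45.5% of all genes were called higher and 23% lower, and the median log2 change was -0.10, beside 0.19 over all genes. That median was 0.10 with every library brought to the same sum. The members thus stood 0.48 above the middle of the transcriptome in 143B and 0.29 below it in HOS, on the log2 scale. Across the 5 other scalings that distance lay between 0.44 and 0.52 in 143B and between -0.32 and -0.08 in HOS. Scalings that multiply a library by 1 factor shift members and other genes nearly alike, so they could hardly change it. Quantile normalization gave 0.46 in 143B and -0.08 in HOS, and the length and GC correction 0.52 and -0.32. Between single 143B libraries, a difference of member medians had a spread (SD) of 0.47. The balance of calls moved with the scaling. In 143B it was 5 higher and 4 lower with every library brought to the same sum, and 9 and 1 under median-ratio scaling. In HOS it was 15 higher and 9 lower with the same sum, and 5 and 18 under median-ratio scaling. All changes below are on the log2(FPKM + 1) scale as deposited, sgNAT10 minus NC.

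**Figure D1:**
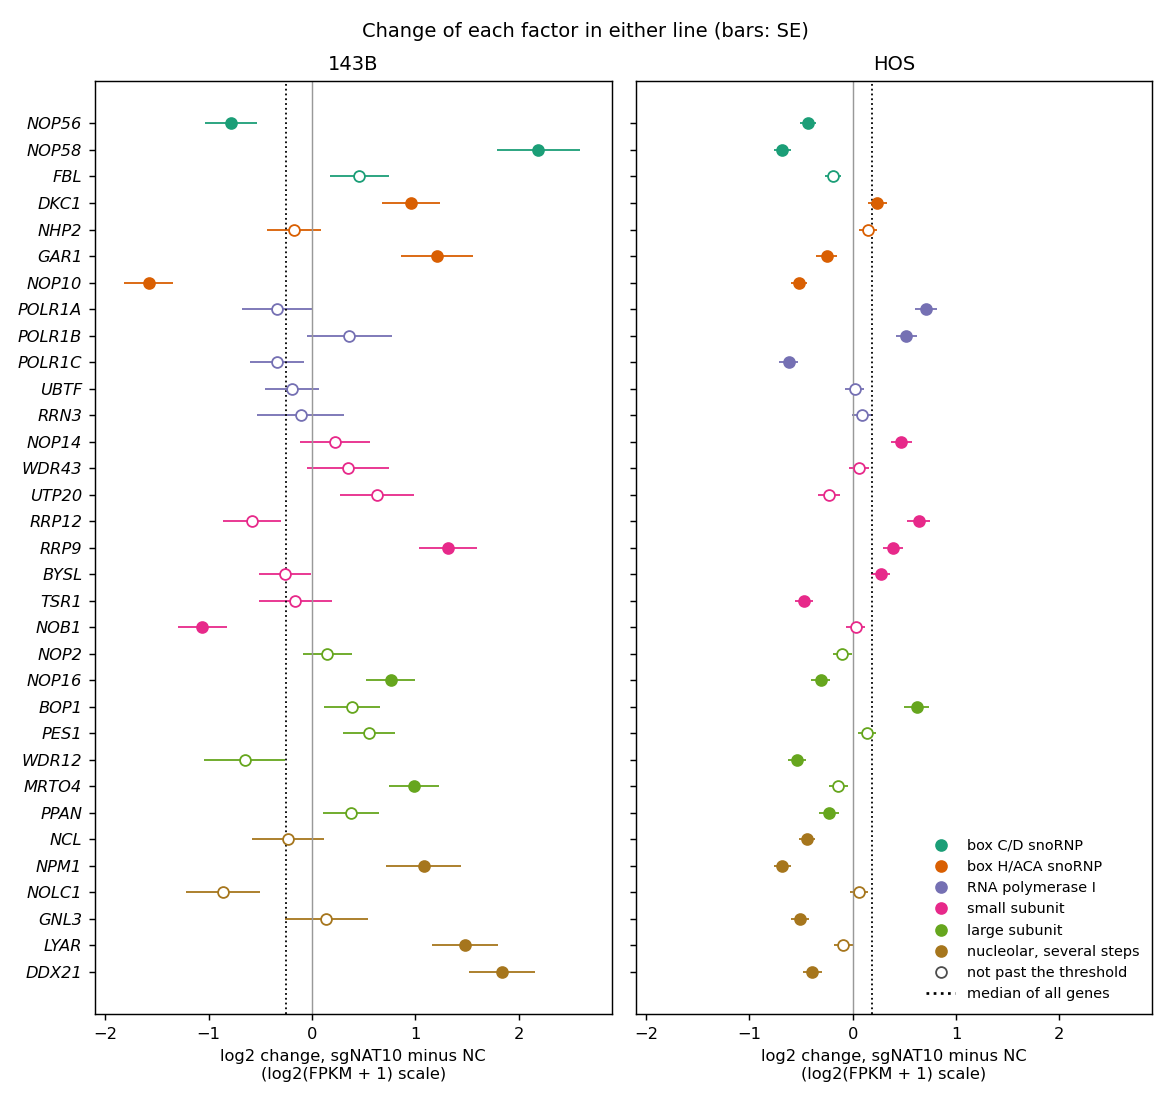
Log2 change of each of the 33 genes, sgNAT10 minus NC, on the log2(FPKM + 1) scale in 143B (left) and HOS (right), with SE bars; filled points passed an adjusted p of 0.05, open points did not, colours mark the role and the dotted line the median of all genes. NOP58 and DDX21 stand at 2.19 and 1.84 in 143B and at -0.68 and -0.39 in HOS, while NOP10 and NOP56 lie left of 0 in both lines.

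The 3 proteins of box C/D snoRNPs did not move together in 143B. NOP58 and NOP56 are related proteins that sit side by side in the particle, and fibrillarin (FBL) is its methyltransferase. NOP58 had 88.6 and 141 FPKM in 143B sgNAT10, against 15.2 and 36.5 FPKM in 143B NC. Both sgNAT10 libraries lay above both NC libraries, by a log2 change of 2.19 (SE 0.40, adjusted p = 0.0044), and the call held under all 16 alternatives. NOP56 had 61.3 and 58.1 FPKM in 143B sgNAT10, against 90.9 and 117 FPKM in 143B NC. It fell, by a log2 change of -0.78 (SE 0.25, adjusted p = 0.035). Of its 16 alternatives 7 ended that call, among them leaving out NC replicate 2 (adjusted p = 0.14), sgNAT10 replicate 1 (0.12) or sgNAT10 replicate 2 (0.16), correction for length and GC (0.23), quantile normalization (0.11) and median-ratio scaling (0.36). FBL had 814 and 710 FPKM in 143B sgNAT10, against 656 and 468 FPKM in 143B NC, and was not called (log2 0.46, SE 0.29, adjusted p = 0.24).

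In HOS the box C/D genes shared a direction. NOP58 had 76.7 and 76.4 FPKM in the HOS libraries labelled sgNAT10, against 125 and 121 FPKM in HOS NC, and fell (log2 -0.68, SE 0.08, adjusted p = 3.1e-06). NOP56 had 108.4 and 107.6 FPKM in HOS sgNAT10, against 145.5 and 145.5 FPKM in HOS NC, and fell too (log2 -0.43, SE 0.08, adjusted p = 0.00023). FBL had 290.4 and 302 FPKM in HOS sgNAT10, against 318 and 358 FPKM in HOS NC, and just missed the threshold (log2 -0.19, adjusted p = 0.059). The groups did not overlap for any of the 3 genes in HOS. How many of all genes lacked overlap was not counted, and in HOS 45.5% of all genes were called higher and 23% lower.

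A ratio of partner genes within a library is left as it is by scalings that multiply a library by 1 factor, though not by quantile normalization or the length and GC correction. NOP58 stood to NOP56 as 1.44 and 2.43 in 143B sgNAT10, against 0.168 and 0.312 in 143B NC, and as 0.708 and 0.710 in HOS sgNAT10, against 0.858 and 0.833 in HOS NC. NOP58 was thus the lower of the pair in every library but the 2 of 143B sgNAT10. NOP58 (chr2:202265716-202303666, plus strand, GRCh38) holds 4 annotated snoRNA genes inside its bounds and NOP56 (chr20:2652145-2658393, plus strand) holds 5, so each is both a snoRNP gene and a snoRNA host. Transcripts of NOP58 have a median GC content of 41.3% and those of NOP56 of 54.3%.

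Box H/ACA particles hold the pseudouridine synthase dyskerin (DKC1) with NHP2, NOP10 and GAR1, and the same proteins form part of telomerase. NOP10, the smallest of them, fell in both lines. It had 68.2 and 78.6 FPKM in 143B sgNAT10, against 209 and 232 FPKM in 143B NC (log2 -1.58, SE 0.24, adjusted p = 0.0024), and this call held under all 16 alternatives. In HOS it had 296 and 306 FPKM in the libraries labelled sgNAT10, against 441 and 420.3 FPKM in HOS NC (log2 -0.52, SE 0.08, adjusted p = 2.8e-05). The 143B fall was the larger, by -1.06 on the log2 scale (SE 0.22, adjusted p = 0.0040), though under median-ratio scaling that difference was -0.55 (adjusted p = 0.16). NOP10 lies at chr15:34341713-34343177 on the minus strand.

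DKC1 rose in both lines, as called. It had 63.9 and 74.7 FPKM in 143B sgNAT10, against 28.1 and 43.3 FPKM in 143B NC (log2 0.96, SE 0.28, adjusted p = 0.026). DKC1 missed the threshold in 143B when NC replicate 1 (adjusted p = 0.12) or sgNAT10 replicate 2 (0.12) was left out, and with libraries brought to the same sum (0.13). In HOS DKC1 had 65.9 and 68.2 FPKM in the libraries labelled sgNAT10, against 57.6 and 55.9 FPKM in HOS NC (log2 0.24, SE 0.09, adjusted p = 0.024), only 0.048 above the median change of all HOS genes. Without HOS sgNAT10 replicate 1 or replicate 2 the adjusted p was 0.17 and 0.27, and under median-ratio scaling the value was 0.01.

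GAR1 went opposite ways. It had 36.6 and 71.9 FPKM in 143B sgNAT10, against 18.2 and 25.8 FPKM in 143B NC, and rose (log2 1.21, SE 0.35, adjusted p = 0.026), a call that leaving out sgNAT10 replicate 2 (adjusted p = 0.24) or bringing libraries to the same sum (0.12) ended. HOS libraries labelled sgNAT10 held 32.1 and 34.4 FPKM, against 42.3 and 37.4 FPKM in HOS NC, and GAR1 fell (log2 -0.25, adjusted p = 0.028). The HOS fall was lost without NC replicate 1 (adjusted p = 0.070), sgNAT10 replicate 1 (0.32) or sgNAT10 replicate 2 (0.12). NHP2 was not called in either line, with 400.4 and 334 FPKM in 143B sgNAT10, against 462 and 367 FPKM in 143B NC, and with 164 and 168 FPKM in HOS sgNAT10, against 138 and 161 FPKM in HOS NC. NOP10 stood to DKC1 as 1.07 and 1.05 in 143B sgNAT10, against 7.45 and 5.35 in 143B NC, and as 4.49 and 4.49 in HOS sgNAT10, against 7.65 and 7.52 in HOS NC. This ratio was lower in the libraries labelled sgNAT10 of both lines, with no overlap.

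**Figure D2:**
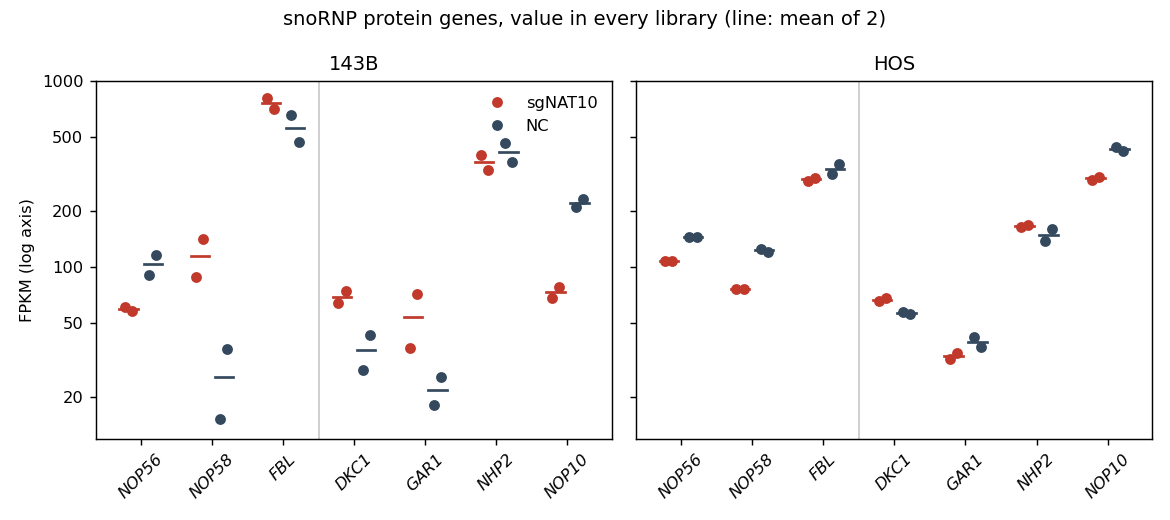
FPKM (log axis) of the 7 snoRNP protein genes in every library of 143B (left) and HOS (right); points are single libraries, sgNAT10 in red left of NC in dark blue, short lines are means of 2 libraries, and the grey line parts box C/D from box H/ACA genes. NOP58 and GAR1 are above NC in 143B and below it in HOS, and NOP10 is below NC in both.

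**Figure D3:**
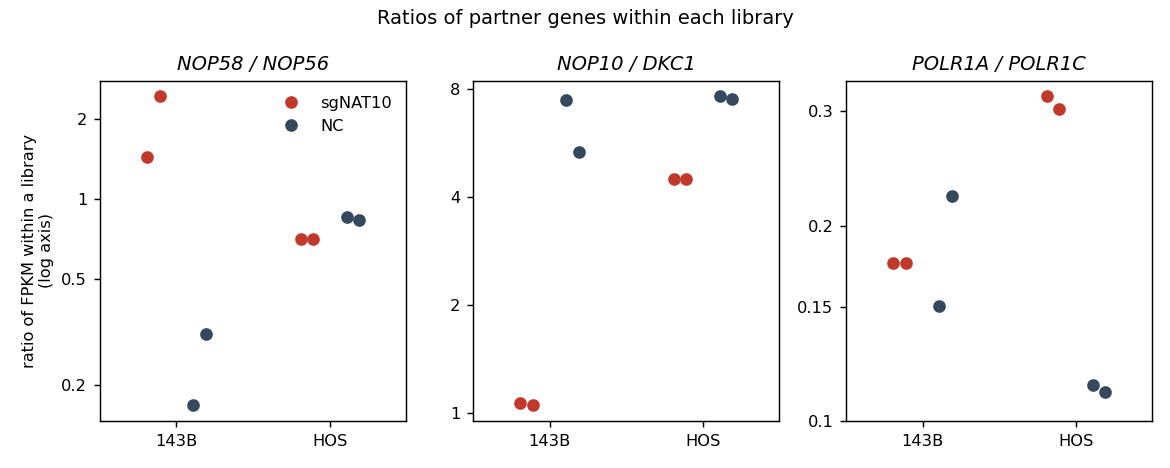
Ratio of FPKM of NOP58 to NOP56, NOP10 to DKC1 and POLR1A to POLR1C within each library (log axes), sgNAT10 in red left of NC in dark blue, 2 libraries a group. NOP58 to NOP56 reaches 2.43 in 143B sgNAT10, NOP10 to DKC1 is lower under sgNAT10 in both lines, and POLR1A to POLR1C is higher under it in HOS.

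The RNA polymerase I genes showed no call in 143B by limma, with 0 of 5 under an unadjusted p of 0.05 as well, and 3 in HOS. Of all genes tested, 12.9% were called higher and 25.4% lower in 143B, and 45.5% and 23% in HOS. Their median change differed from that of all genes by 0.07 in 143B and -0.1 in HOS. POLR1A and POLR1B code for the subunits that form the catalytic core, POLR1C for an assembly subunit shared with RNA polymerase III, UBTF for the factor that binds ribosomal DNA, and RRN3 for the initiation factor that joins the enzyme to its promoter. POLR1A had 8.97 and 8.29 FPKM in the HOS libraries labelled sgNAT10, against 4.88 and 4.87 FPKM in HOS NC, and rose (log2 0.71, SE 0.11, adjusted p = 2.3e-05). POLR1B had 13.56 and 13.77 FPKM in HOS sgNAT10, against 9.63 and 8.83 FPKM in HOS NC, and rose (log2 0.52, SE 0.10, adjusted p = 0.00030). POLR1C had 28.3 and 27.4 FPKM in HOS sgNAT10, against 43.0 and 44.0 FPKM in HOS NC, and fell (log2 -0.62, SE 0.09, adjusted p = 1.5e-05), a call that held under all 17 alternatives.

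The 3 genes called in HOS also differ in transcript length, and POLR1B transcripts have a median of 4146.5 nucleotides. Median GC content was 52.5% for POLR1A, 46.3% for POLR1B and 50.3% for POLR1C. The part of these properties in the directions was not tested. POLR1A transcripts have a median length of 9602 nucleotides and those of POLR1C 1275, and after correction for length and GC POLR1A stood at 0.01 (adjusted p = 0.88) and POLR1B at 0.15 (adjusted p = 0.059). The ratio of POLR1A to POLR1C was 0.317 and 0.302 in HOS sgNAT10, against 0.113 and 0.111 in HOS NC. In 143B that ratio was 0.175 and 0.175 in sgNAT10, against 0.150 and 0.222 in NC, which overlap. POLR1A had 3.41 and 3.36 FPKM in 143B sgNAT10, against 3.74 and 5.48 FPKM in 143B NC (log2 -0.34, adjusted p = 0.47). POLR1C had 19.5 and 19.2 FPKM in 143B sgNAT10, against 24.9 and 24.7 FPKM in 143B NC (log2 -0.34, adjusted p = 0.33), and POLR1B 5.55 and 10.07, against 4.23 and 7.38 (log2 0.36, adjusted p = 0.51). The change of POLR1A differed between the lines by -1.05 (SE 0.29, adjusted p = 0.015), and after the same correction by 0.09. UBTF and RRN3 were not called in either line, with log2 changes of -0.19 and -0.11 in 143B and 0.02 and 0.09 in HOS.

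Among 8 small subunit factors, RRP9 rose and NOB1 fell in 143B, while 4 rose and 1 fell in HOS. The shares over all genes were 12.9% higher and 25.4% lower in 143B, and 45.5% and 23% in HOS. The median change of the 8 differed from that of all genes by 0.28 in 143B and -0.02 in HOS. RRP9, a protein specific to the U3 snoRNP, had 399 and 335 FPKM in 143B sgNAT10, against 180 and 119 FPKM in 143B NC (log2 1.32, SE 0.28, adjusted p = 0.0074). The call held under all 16 alternatives. HOS showed the same direction, with 31.4 and 34.2 FPKM in the libraries labelled sgNAT10, against 23.8 and 25.7 FPKM in HOS NC (log2 0.39, SE 0.10, adjusted p = 0.0018). The rise in HOS missed the threshold when sgNAT10 replicate 2 was left out (adjusted p = 0.099), under median-ratio scaling (0.17 on the log2 scale, adjusted p = 0.14) and after correction for length and GC (0.09, adjusted p = 0.25).

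NOB1, the endonuclease that makes the last cut of the small subunit RNA, had 35.3 and 34.4 FPKM in 143B sgNAT10, against 70.2 and 77.3 FPKM in 143B NC (log2 -1.06, SE 0.24, adjusted p = 0.0092). Its groups overlapped in HOS, with 54.7 and 62.8 FPKM in HOS sgNAT10 and 56.6 and 58.2 FPKM in HOS NC (log2 0.03, adjusted p = 0.79). The difference between the lines was -1.09 (SE 0.23, adjusted p = 0.0044). It was -0.58 (adjusted p = 0.14) under median-ratio scaling and -0.29 (adjusted p = 0.17) after correction for length and GC, and the 143B call was lost under the first of these (adjusted p = 0.11).

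RRP12, needed for export of the small subunit, had 10.75 and 10.75 FPKM in HOS sgNAT10, against 5.88 and 7.28 FPKM in HOS NC (log2 0.64, SE 0.11, adjusted p = 0.00011). In 143B it had 18.0 and 13.9 FPKM in sgNAT10, against 26.1 and 22.4 FPKM in NC (log2 -0.58, adjusted p = 0.14). The lines differed by -1.22 (SE 0.30, adjusted p = 0.0086), but after correction for length and GC by -0.08 (adjusted p = 0.74), and without HOS NC replicate 1 the adjusted p was 0.050. NOP14, a scaffold of the early precursor, had 24.3 and 22.9 FPKM in HOS sgNAT10, against 16.5 and 16.9 FPKM in HOS NC (log2 0.47, adjusted p = 0.00037), and stood at 0.05 after that correction. TSR1, a GTPase-like factor of the late precursor, had 38.9 and 40.8 FPKM in HOS sgNAT10, against 56.0 and 55.5 FPKM in HOS NC, and fell (log2 -0.47, adjusted p = 0.00017). BYSL, which binds the same particle as TSR1, rose in HOS by 0.27 (adjusted p = 0.015), but stood at -0.09 after that correction and lost the call without sgNAT10 replicate 1 (adjusted p = 0.18) or replicate 2 (0.17). WDR43 and UTP20, both of the early processome, were called in neither line.

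Of 7 large subunit factors, NOP16 and MRTO4 rose in 143B and none fell (0 at an unadjusted p under 0.05 by limma as well), and in HOS BOP1 rose while NOP16, WDR12 and PPAN fell. Beside these, 12.9% of all genes were called higher and 25.4% lower in 143B, and 45.5% and 23% in HOS. The median change of the 7 differed from that of all genes by 0.64 in 143B and -0.32 in HOS. MRTO4, which places the ribosomal stalk, had 154 and 139 FPKM in 143B sgNAT10, against 78.4 and 68.4 FPKM in 143B NC (log2 0.99, SE 0.24, adjusted p = 0.012). Without 143B sgNAT10 replicate 1 the adjusted p was 0.079. In HOS it had 52.0 and 52.9 FPKM in the libraries labelled sgNAT10, against 58.2 and 57.3 FPKM in HOS NC (log2 -0.14, adjusted p = 0.18), and the difference between the lines, 1.12 (SE 0.23, adjusted p = 0.0034), held under all 19 alternatives. NOP16 had 186 and 146 FPKM in 143B sgNAT10, against 100.3 and 94.2 FPKM in 143B NC (log2 0.76, SE 0.24, adjusted p = 0.037). In HOS it had 56.5 and 56.0 FPKM in the libraries labelled sgNAT10, against 71.6 and 68.4 FPKM in HOS NC (log2 -0.31, adjusted p = 0.0046). The 143B call of NOP16 was lost without NC replicate 2 (adjusted p = 0.071), sgNAT10 replicate 1 (0.30) or sgNAT10 replicate 2 (0.069), and the HOS call without sgNAT10 replicate 1 (0.089) or replicate 2 (0.099).

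PES1, BOP1 and WDR12 form the PeBoW complex of the large subunit precursor, and in HOS they did not move alike. BOP1 had 56.3 and 52.1 FPKM in the HOS libraries labelled sgNAT10, against 29.9 and 41.1 FPKM in HOS NC, and rose (log2 0.62, SE 0.12, adjusted p = 0.00023). WDR12 had 21.4 and 22.1 FPKM in HOS sgNAT10, against 33.1 and 31.1 FPKM in HOS NC, and fell (log2 -0.54, SE 0.09, adjusted p = 9.3e-05). PES1 was not called in HOS (log2 0.14, adjusted p = 0.20). In 143B none of the 3 was called, with log2 changes of 0.39 for BOP1, -0.65 for WDR12 and 0.55 for PES1. BOP1 transcripts have a median GC content of 65.7%, those of PES1 58.2% and those of WDR12 40.2%. PPAN fell in HOS (log2 -0.23, adjusted p = 0.039) and lost its call without sgNAT10 replicate 1 (adjusted p = 0.29) or replicate 2 (0.25). NOP2, a methyltransferase of the large subunit RNA, was called in neither line (log2 0.15 in 143B and -0.10 in HOS).

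Of the 6 nucleolar proteins that act at several steps, 3 rose in 143B and none fell, with 3 and 1 at an unadjusted p under 0.05 by limma, while in HOS 4 fell. Over all genes 12.9% were called higher and 25.4% lower in 143B, and 45.5% and 23% in HOS. The median change of the 6 differed from that of all genes by 0.86 in 143B and -0.6 in HOS. DDX21, an RNA helicase of ribosomal RNA transcription and processing, had 118 and 119.7 FPKM in 143B sgNAT10, against 23.4 and 44.7 FPKM in 143B NC (log2 1.84, SE 0.32, adjusted p = 0.0035). The HOS values were 74.9 and 77.9 FPKM in the libraries labelled sgNAT10, against 108.7 and 92.4 FPKM in HOS NC (log2 -0.39, SE 0.09, adjusted p = 0.0015). The 143B rise and the difference between the lines, 2.23 (SE 0.38, adjusted p = 0.0014), held under all 16 and 19 alternatives tried for them. LYAR, which binds precursor RNA, had 59.4 and 85.0 FPKM in 143B sgNAT10, against 18.9 and 32.7 FPKM in 143B NC (log2 1.48, SE 0.32, adjusted p = 0.0084), also under all 16 alternatives. In HOS it was not called, with 53.3 and 53.8 FPKM in the libraries labelled sgNAT10, against 59.1 and 55.0 FPKM in HOS NC.

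NPM1, nucleophosmin, had the highest FPKM of the 33 in every library but 143B NC replicate 1, where FBL did. It had 1146 and 1740 FPKM in 143B sgNAT10, against 504 and 888 FPKM in 143B NC (log2 1.08, SE 0.36, adjusted p = 0.045). Leaving out NC replicate 1 (adjusted p = 0.13), sgNAT10 replicate 1 (0.056) or sgNAT10 replicate 2 (0.30), or bringing libraries to the same sum (0.17), ended the 143B call. HOS had 1394 and 1488 FPKM in the libraries labelled sgNAT10, against 2367 and 2259 FPKM in HOS NC (log2 -0.68, SE 0.08, adjusted p = 1.3e-06). Its values are uncertain, since 45 annotated pseudogenes carry its name. GNL3, nucleostemin, had 82.1 and 83.3 FPKM in HOS sgNAT10, against 123.5 and 113 FPKM in HOS NC, and fell (log2 -0.51, adjusted p = 7.0e-05). NCL, nucleolin, fell in HOS as well (log2 -0.44, adjusted p = 0.00013), but stood at -0.06 (adjusted p = 0.44) under quantile normalization. Neither was called in 143B, where the groups overlapped for both. GNL3 had 25.3 and 50.7 FPKM in 143B sgNAT10, against 23.3 and 45.3 FPKM in 143B NC. NOLC1, a chaperone of snoRNPs, was called in neither line (log2 -0.86, adjusted p = 0.088 in 143B; log2 0.06 in HOS).

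Set side by side, 4 of the 33 genes were called in the same direction in both lines. DKC1 and RRP9 were called higher in both, where 3.39% of all 10655 genes tested in both were, and NOP56 and NOP10 lower in both, where 2.73% were. NOP58, GAR1, NOP16, NPM1 and DDX21 were called higher in 143B and lower in HOS, where 3.63% of all genes were. With libraries brought to the same sum NOP58 alone of these 5 was called in opposite directions: the HOS falls of GAR1 (-0.04, adjusted p = 0.70), NOP16 (-0.10, adjusted p = 0.33) and DDX21 (-0.18, adjusted p = 0.081) and the 143B rises of GAR1, NOP16 and NPM1 were lost. Another 3 genes were called in 143B alone, 12 in HOS alone and 9 in neither. The matching shares of all genes were not counted. More of all genes were called in HOS (45.5% higher and 23% lower) than in 143B (12.9% and 25.4%). The difference itself, 143B change minus HOS change, passed the threshold for 12 of the 33, 8 of them positive and 4 negative, where 12.9% of all 10655 genes tested in both lines were called positive and 36.2% negative. Under median-ratio scaling 12 were positive and 0 negative by limma, with 17 and 1 under an unadjusted p of 0.05. The 8 positive ones were NOP58, DDX21, NPM1, LYAR, GAR1, MRTO4, NOP16 and RRP9, and the 4 negative ones were RRP12, NOB1, NOP10 and POLR1A. The mean change over both lines passed for 7 genes upward and 4 downward, where 13.1% and 17.6% of all genes did, and when any 1 of the 4 HOS libraries was left out RRP9 alone stayed called upward. NOP10 had the largest mean change of the 33 in size as deposited, -1.05 (SE 0.11, adjusted p = 0.00057).

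The HOS calls lean on the close agreement of HOS libraries. With the spread estimated over all 8 libraries together, 2 of the 21 HOS calls remained, POLR1A and POLR1C. Beside that, transcript GC content and length both differed with the HOS calls. Median GC content was 54.8% for the 8 genes called higher and 46.9% for the 13 called lower. Their median transcript lengths were 2232 and 1288 nucleotides. Across the 33 genes, which share libraries and are not independent, Pearson's r between GC content and log2 change was 0.48 in HOS and -0.21 in 143B, and after correction for length and GC it was 0.20 and 0.18. With that correction 4 of the 33 were called higher and 21 lower in HOS, and 16 higher and 4 lower in 143B. The correction fits length and GC together, and what produced the dependence on either was not tested.

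**Figure D4:**
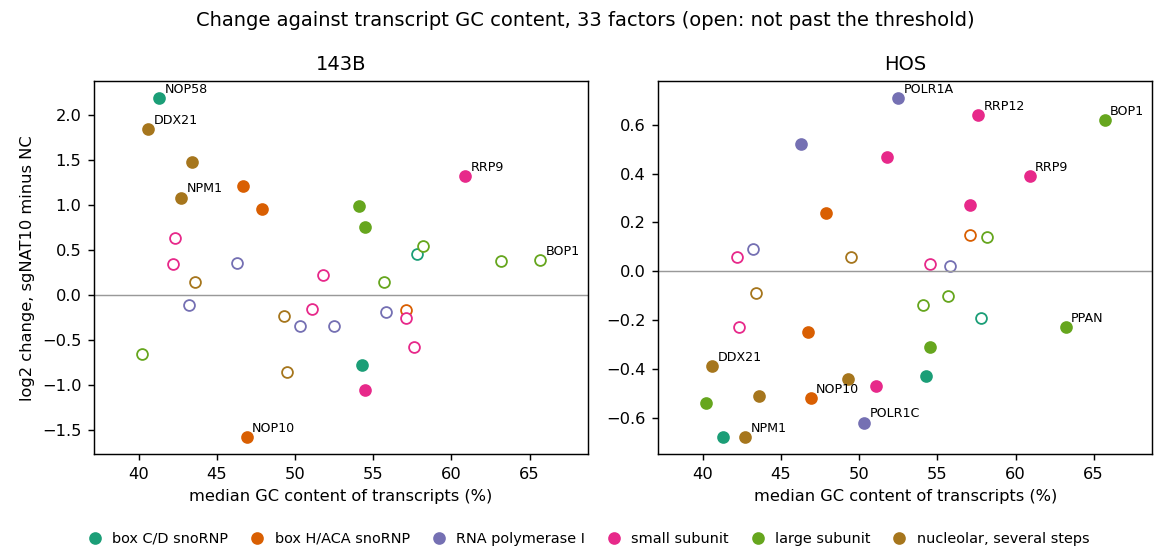
Log2 change, sgNAT10 minus NC, against the median GC content of annotated transcripts (%), for the 33 genes in 143B (left) and HOS (right, narrower vertical axis); filled points passed an adjusted p of 0.05 and colours mark the role. In HOS BOP1, at 65.7% GC, stands at 0.62 and NPM1, at 42.7%, at -0.68, while in 143B NOP58 and DDX21 stand at the top left.

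Other genes of the pathway were called in both directions. Of 110 of them, 19 were higher and 7 lower in 143B sgNAT10, and in HOS, of 109 tested, 26 were called higher and 50 lower under the sgNAT10 label, with median log2 changes of 0.14 in 143B and -0.15 in HOS. Over all genes tested, 12.9% were called higher and 25.4% lower in 143B, and 45.5% and 23% in HOS. With libraries brought to the same sum the balance turned, to 6 higher and 12 lower in 143B and 40 and 37 in HOS. It was 39 and 16 in 143B after the length and GC correction, and 18 and 66 in HOS under median-ratio scaling. By step, 143B had 5 higher and 1 lower of 11 in the RNA polymerase I machinery, 7 and 1 of 38 in small subunit maturation, 5 and 3 of 36 in large subunit assembly, 2 and 0 of 14 in the RNA exosome and 0 and 2 of 11 in snoRNP assembly. At an unadjusted p of 0.05 the exosome had 2 and 1 and snoRNP assembly 0 and 2. Small subunit maturation in 143B had 1 higher and 3 lower with libraries brought to the same sum. HOS had 4 and 3 of 11, 7 and 18 of 37, 8 and 18 of 36, 2 and 8 of 14, and 5 and 3 of 11 for the same steps.

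Single genes beyond the 33 illustrate these counts. TWISTNB, an RNA polymerase I subunit now named POLR1F, had 25.9 and 32.0 FPKM in 143B sgNAT10, against 3.32 and 7.78 FPKM in 143B NC (log2 2.27, adjusted p = 0.0033), and was not called in HOS (log2 -0.14). CD3EAP, the subunit now named POLR1G, had 26.7 and 23.5 FPKM in 143B sgNAT10, against 6.69 and 7.97 FPKM in 143B NC (log2 1.65, adjusted p = 0.0038), and rose in HOS (log2 0.47, adjusted p = 0.0024). These subunits were thus called in 143B where POLR1A, POLR1B and POLR1C were not. RIOK1, a kinase of the late small subunit, rose in 143B (log2 1.86, adjusted p = 0.0081), as did UTP23 (log2 1.54, adjusted p = 0.015) and the large subunit factor RPF2 (log2 1.69, adjusted p = 0.011), which fell in HOS (log2 -0.35, adjusted p = 0.0058). RUVBL1, an ATPase of snoRNP assembly, fell in both lines (log2 -0.76, adjusted p = 0.032 in 143B; log2 -0.27, adjusted p = 0.0096 in HOS). C1D, NGDN, BRIX1, NVL, EXOSC10 and PIH1D1 were called lower in HOS and for the mean over both lines. Their HOS log2 changes ran from -0.42 (PIH1D1) to -0.71 (EXOSC10). None was called in 143B, where all were negative too, from -0.31 (PIH1D1) to -1.11 (C1D, limma adjusted p = 0.051). EXOSC6 rose in HOS (log2 0.76) and was not called in 143B (log2 0.52). TAF1C fell in 143B (log2 -1.29, adjusted p = 0.015) and rose in HOS (log2 0.27, adjusted p = 0.034).

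Several values are uncertain from overlap. PPAN shares 1447 exonic bases with the readthrough PPAN-P2RY11, and NOP2 shares 2550 with an overlapping gene on its strand. No source used here states whether counting used strand. Exons of NHP2, NOP16, TSR1, NOB1, NOP14, PES1, POLR1C, RRP12, UBTF and WDR12 overlap those of genes on the other strand in part, by 193 bases or more with at least 1 gene each, and without strand the reads from such stretches cannot be told apart. Of the 33 genes, 9 hold annotated snoRNA or scaRNA genes inside their bounds.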

How the data were processed

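Libraries of polyadenylated RNA followed the BGISeq-500 protocol, per the labels. The authors deposited FPKM, which scale fragments by transcript length and library total, in 1 table per line. Bowtie2, RSEM and GRCh38 are among the names in the submitters' processing notes, with neither version nor role. FPKM hold no counts, so depth is unknown and no interval for counting error is given.

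Values were taken as log2(FPKM + 1), and genes reaching 1 FPKM in 2 or more of a line's 4 libraries entered limma 3.58.1 in R 4.3.3 (intensity trend, two-sided, Benjamini-Hochberg over all genes tested, threshold 0.05). Each line was fitted alone; a joint fit over 10655 genes gave the difference between the lines and their mean. Names, positions, lengths and GC contents came from GENCODE 29 (98.1% of listed genes matched in each table), and promoter windows from RefSeq. The fits were also run on simulated data, with libraries drawn independently and few genes changed. That setting differs from these data, so it does not vouch for the calls. All 33 members are named; every library is given for genes called in a line without overlap of groups (at most 12 a line), those differing between lines and all snoRNP proteins, and from each pathway list the 3 largest mean changes past the threshold. The members, lists and E-box search were chosen with earlier results of these data known. Alternatives were pseudocounts of 0.1 and 5, no filter or 5 FPKM, 5 scalings or corrections, no trend, a replicate block, a shared spread and leaving out each library.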

Additional observations from a re-analysis of the deposited data

Results flagged for a closer look

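The change under the sgNAT10 label differed between the lines, by the test of the difference itself (limma, adjusted p under 0.05), for 12 of the 33 genes and for NAT10. As 143B change minus HOS change on the log2 scale, the values were 2.87 for NOP58, 2.23 for DDX21, 1.76 for NPM1, 1.56 for LYAR, 1.46 for GAR1, 1.12 for MRTO4, 1.07 for NOP16 and 0.93 for RRP9. On the negative side they were -1.22 for RRP12, -1.09 for NOB1, -1.06 for NOP10, -1.05 for POLR1A and -1.41 for NAT10 itself. Other scalings ended the call for NPM1 (0.87, adjusted p = 0.10, quantile normalization), and, with libraries brought to the same sum, for LYAR (1.03, 0.074), NOP16 (0.53, 0.073), GAR1 (0.93, 0.13) and RRP9 (0.39, 0.25). Median-ratio scaling ended it for RRP12 (-0.74, 0.12), NOB1 (-0.58, 0.14), NOP10 (-0.55, 0.16) and POLR1A (-0.62, 0.052). Quantile normalization ended it for RRP12 (-0.55, 0.14) and POLR1A (-0.49, 0.080) as well, and the length and GC correction for RRP12 (-0.08, 0.74), NOB1 (-0.29, 0.17), POLR1A (0.09, 0.60) and NAT10 (-0.50, 0.070). The differences of NOP58, DDX21 and MRTO4 passed under all 19 alternatives. Leaving out 1 library ended the call for GAR1 (without HOS NC replicate 1, adjusted p = 0.077, or HOS sgNAT10 replicate 1, 0.064), for RRP12 (without HOS NC replicate 1, 0.050), for POLR1A (without any of the 4 HOS libraries, 0.057 to 0.081) and for RRP9. For RRP9 the adjusted p was 0.053 without 143B NC replicate 2, 0.087 without 143B sgNAT10 replicate 1, and 0.078 to 0.12 without any of the 4 HOS libraries. The groups of 2 libraries are too small for a search for single libraries that stand apart.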

How the results depend on the processing

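Of 2337 recomputed values of single genes, 148 lost a call, 135 gained one and 10 reversed with a call on at least 1 side. The other 2044 kept their side of the threshold, and 123 of these changed sign while called in neither. The cause of these changes was not tested. The HOS values that reversed did so under the correction for length and GC. They were -0.45 for UBTF, -0.09 for BYSL, -0.26 for NOB1, -0.25 for PES1 and -0.33 for NOLC1. NAT10, which is not among the 2337 values, reversed there to -0.13. Under the same correction the differences between lines that reversed were 0.09 for POLR1A, 0.90 for UBTF, 0.60 for NOP14, 0.48 for BYSL and 0.71 for BOP1.

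Members called higher in 143B were 16 under the length and GC correction and 5 with libraries brought to the same sum; those called lower were 1 under median-ratio scaling and 5 with a shared spread. In HOS, 4 were higher under the length and GC correction, 5 under median-ratio scaling, 15 with the same sum and 1 with a shared spread, and 21 were lower under the length and GC correction and 1 with a shared spread, which called 1864 of all genes. The HOS median of the members was -0.34 under the length and GC correction, -0.33 under median-ratio scaling, -0.06 under quantile normalization, 0.10 with the same sum and -0.07 without ribosomal protein and MTRNR2L genes. Positive differences between lines numbered 20 under the length and GC correction and 4 with the same sum; negative ones numbered 1 under that correction, 0 under median-ratio scaling (1 at an unadjusted p under 0.05, limma) and 10 with the same sum. For the mean over lines, 2098 genes were called with the filter at 5 FPKM and 5856 under the length and GC correction; members higher were 13 under that correction, 11 under quantile normalization and 3 with the same sum, and members lower were 8 under that correction.

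Deviations of libraries sharing a number correlated at 0.605 in 143B and -0.106 in HOS; with 2 pairs a line the libraries share only a number. The replicate block called 7652 genes in 143B, with 14 members higher and 6 lower, gave 13 positive differences, and for the mean called 6124 genes, with 11 members higher and 8 lower. Pairing the HOS numbers crosswise, added after seeing the data, called 8458 genes.

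Leaving out 1 library at a time, 143B gave 1995 to 5067 genes, 5 to 9 members higher, 2 to 5 lower and a median of -0.01 to 0.29. HOS gave 5 to 10 members higher and a median of -0.13 to -0.08. Negative differences numbered 2 to 6. For the mean, 1399 to 4763 genes, 1 to 11 members higher and 2 to 8 lower were called; the lone library of a group is assumed to vary like the others. With the filter at 5 FPKM, 31 of the 33 genes were tested in 143B and in the joint fit.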
